A study of Mus musculus with 19 samples.

Results

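The transcripts of 10 core circadian clock genes, Arntl (Bmal1), Clock, Npas2, Per1, Per2, Per3, Cry1, Cry2, Nr1d1 (Rev-erbα) and Nr1d2 (Rev-erbβ), were followed in mouse muscle cells and in mouse soleus muscle. Every probe whose annotated gene name was one of these was taken, which gave 18 of the 41174 probes of a 1-colour Agilent whole-genome array. The genes were selected on their textbook role and on their measured differences of HDAC4&5 from WT cells and of db from Con soleus, so these 2 comparisons are given for them as a description. C2C12 cells, a mouse myoblast line, were stable transfectants selected with hygromycin and geneticin and harvested 48 h after seeding. The WT group (6 arrays) carried the empty plasmids, and the HDAC4&5 group (6 arrays) carried plasmids for human HDAC4 and human HDAC5, class IIa histone deacetylases. All 12 cell samples therefore share the plasmid backbones and both antibiotics. Soleus came from male C57BL6J mice 12 weeks old. The db group (4 arrays) held homozygous db/db mice, which lack a functional leptin receptor and are diabetic, and the Con group (3 arrays) held heterozygous db littermates, so that the controls carry 1 db allele. All mice were fasted for 5 h before tissue was taken and were kept on a light and dark cycle of 12 h each. The time of day at which soleus was taken is not given in the sources used here, and its part in the differences was not tested. In bulk soleus, fewer cells of a type and less RNA per cell cannot be told apart.

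The circadian clock of mammalian cells is a feedback loop of transcription. ARNTL pairs with CLOCK, or with its relative NPAS2, and the pair binds E-boxes and activates the Per, Cry and Nr1d genes. PER and CRY proteins return to the nucleus and repress ARNTL and CLOCK, while the nuclear receptors NR1D1 and NR1D2 repress Arntl from response elements that they share with the ROR activators. In skeletal muscle the loop also drives genes of fuel use and of the myogenic programme, and a level measured at 1 time is a point on a cycle.

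Promoter sequence shows where these regulators could act on each other. RefSeq entries of build GRCm38.p6 were found for 9 of the 10 genes, and Per2 had none. The 250 bases before the annotated start are printed 5′ to 3′ on the gene's strand for the genes with a match to an E-box, an E′-box or a D-box, and for Arntl as the gene with no match that was lower in both experiments. Capitals mark the matches, so that a CACGTT on the opposite strand reads as AACGTG.
Per1: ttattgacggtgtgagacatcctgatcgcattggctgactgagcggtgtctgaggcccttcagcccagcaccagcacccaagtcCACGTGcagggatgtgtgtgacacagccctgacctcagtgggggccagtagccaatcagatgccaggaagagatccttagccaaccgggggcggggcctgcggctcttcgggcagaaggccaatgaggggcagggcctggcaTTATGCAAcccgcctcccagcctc
Per3: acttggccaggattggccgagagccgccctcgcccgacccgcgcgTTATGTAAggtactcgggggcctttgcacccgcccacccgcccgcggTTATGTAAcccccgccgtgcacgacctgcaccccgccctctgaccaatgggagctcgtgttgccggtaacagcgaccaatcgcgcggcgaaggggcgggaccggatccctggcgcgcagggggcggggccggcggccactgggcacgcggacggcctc
Cry1: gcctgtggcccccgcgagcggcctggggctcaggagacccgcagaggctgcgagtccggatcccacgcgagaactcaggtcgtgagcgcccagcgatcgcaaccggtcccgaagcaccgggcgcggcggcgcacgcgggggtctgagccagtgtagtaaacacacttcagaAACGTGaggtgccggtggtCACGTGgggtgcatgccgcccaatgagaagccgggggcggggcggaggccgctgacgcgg
Cry2: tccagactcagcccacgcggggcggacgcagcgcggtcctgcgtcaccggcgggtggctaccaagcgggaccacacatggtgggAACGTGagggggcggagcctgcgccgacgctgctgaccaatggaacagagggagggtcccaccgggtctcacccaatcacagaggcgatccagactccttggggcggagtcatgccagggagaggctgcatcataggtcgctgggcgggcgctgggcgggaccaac
Nr1d1: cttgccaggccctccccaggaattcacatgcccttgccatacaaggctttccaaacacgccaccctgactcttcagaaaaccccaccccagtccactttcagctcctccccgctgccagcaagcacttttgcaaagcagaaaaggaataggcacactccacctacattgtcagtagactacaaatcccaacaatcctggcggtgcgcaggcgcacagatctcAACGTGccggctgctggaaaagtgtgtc
Arntl: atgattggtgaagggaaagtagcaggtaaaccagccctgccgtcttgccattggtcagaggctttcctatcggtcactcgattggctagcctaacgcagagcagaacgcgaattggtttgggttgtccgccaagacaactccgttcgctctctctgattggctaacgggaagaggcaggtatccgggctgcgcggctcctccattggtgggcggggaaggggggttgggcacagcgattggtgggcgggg
The E-box CACGTG, the motif of the ARNTL and CLOCK pair, was found in the promoters of Per1 (chr11:69098699-69098948, plus strand), where it began 166 bases before the start, and of Cry1 (chr10:85185055-85185304, minus strand), where it began 60 bases before the start. It was present in 6.02% of 32851 promoters of this length. The other Per1 entry (chr11:69099902-69100151, plus strand) held no E-box, E′-box or D-box. The E′-box CACGTT, present in 3.85% of promoters, was found on the opposite strand in Cry1, in Cry2 (chr2:92434070-92434319, minus strand) and in Nr1d1 (chr11:98775378-98775627, minus strand). The D-box TTATGNAA, the motif of the DBP, TEF, HLF and NFIL3 factors, was found once in Per1 and at 2 places in Per3 (chr4:151044666-151044915, minus strand), against 3.07% of all promoters. The cores of the ROR and NR1D response element, TAGGTCA and TGGGTCA, were searched on both strands too and were present in 2.23% and 3.24% of promoters. Neither was found in the printed window of Arntl (chr7:113207215-113207464, plus strand), in its other entry (chr7:113207261-113207510) or in the other members with an entry. Only exact matches within 250 bases before a start were searched. An element with other letters or at another place would be missed, so absence of the element is not shown. The E-box and E′-box differ in their last base, and the 2 response element cores in their second. A match is only a run of letters and was not tested for binding.

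A level is the log2 of an array's background-subtracted signal minus the log2 of that array's 75th percentile, so 0 is the level of a bright gene, and a difference of 1 is a 2-fold difference. A probe entered a comparison only if all arrays of one group or of the other held it well above background. Of a gene's probes that entered, the one with the highest mean over all 19 arrays represents it, so this probe can differ between comparisons. Each member tested had the same probe in every comparison. Each of the 3 cell slides held 2 WT and 2 HDAC4&5 arrays. In soleus, slide 1 held Con 1, Con 2, db 1 and db 2, and slide 2 held Con 3, db 3 and db 4. The 75th percentile of signal was 494 to 1691 in the cells, 153 to 232 on soleus slide 1 and 555 to 686 on soleus slide 2, and 46.8% to 57.5% of spots were well above background. The mouse Hdac5 probe was higher in HDAC4&5 cells by 1.42 (SE 0.27, limma adjusted p = 0.000389) and the mouse Hdac4 probe differed by -0.05 (adjusted p = 0.347). The plasmids carry human genes, so these mouse probes check the labels only in part. Whether the mouse probes also read the human transcripts was not tested. Of the muscle and myoblast markers, Myod1, Ckm, Tnni1 and Myl3 were well above background on all WT and no HDAC4&5 arrays, and Myf5 and Actn2 on no array of either group, while Myh7 was higher in HDAC4&5 cells by 1.44 (adjusted p = 7.7e-09) and Met differed by -0.13 (adjusted p = 0.29). The summed linear level of the skeletal muscle markers was 36.3 to 60.4 in WT and 0.462 to 0.61 in HDAC4&5 cells. In soleus all 9 skeletal muscle markers were well above background on all arrays.

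Part of array db 1 was dark. On that array 4275 of 43379 spots (9.85%), in a band whose central 95% ran from row 200 to row 260 of 532, lay among bright spots whose median was more than 1 log2 unit below the same spots on the other soleus arrays. On db 2 the same measure marked 523 spots (1.21%), and on each of the other 17 arrays it marked at most 19. Among the probes that represent the members, the Nr1d2 spot at row 207 and the Per3 spot lay in the band, and the Arntl spot at row 261 lay at its edge without passing the limit. The surroundings of the Nr1d2 spot were at -1.78 on db 1 and at -0.07 to 0.24 on the other soleus arrays, and those of the Arntl spot were at -0.68 on db 1. Tested soleus differences of member probes that rest on such spots are given with and without them. The db values of Per3 and of the second Per2 probe, which entered no test in soleus, are given only with them.

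**Figure D1:**
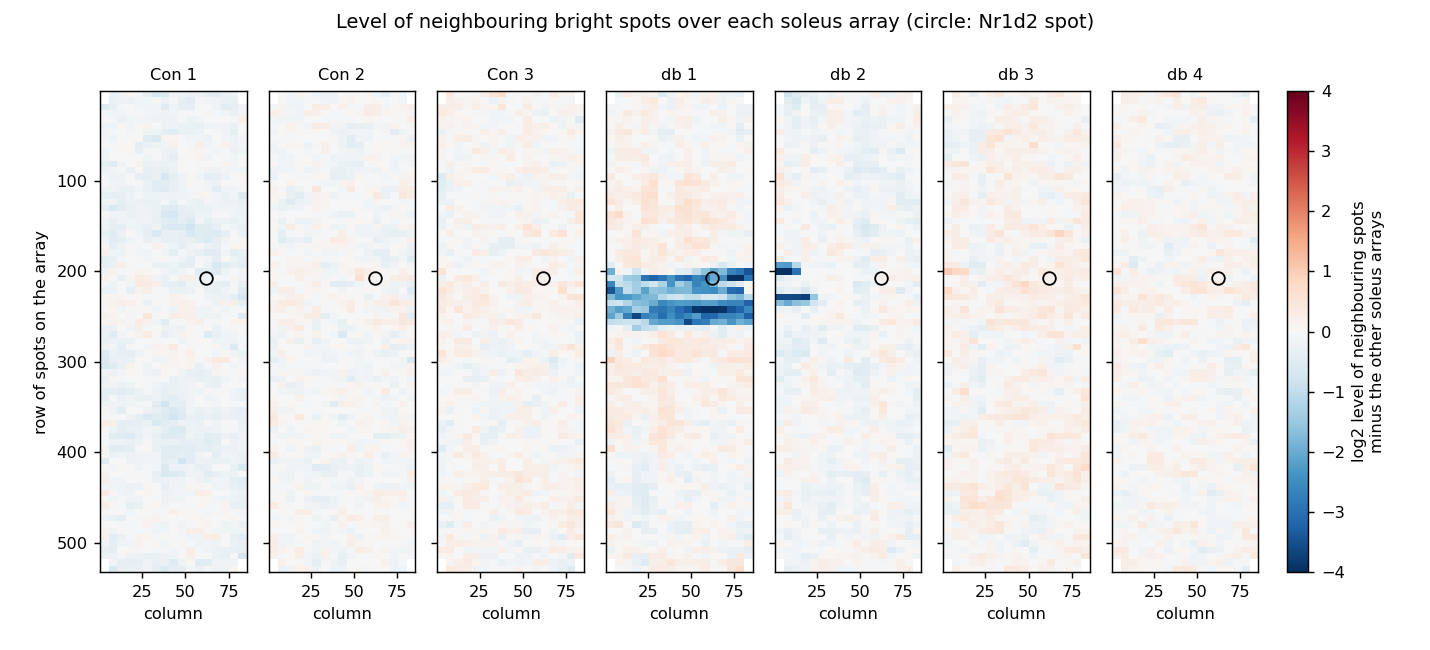
Maps of the 7 soleus arrays by row and column of spots, coloured by the median log2 level of the bright spots in each block minus that of the other soleus arrays, with a circle at the Nr1d2 spot. The blue band on db 1 runs from about row 200 to row 260 and holds the Nr1d2 spot at row 207, and db 2 has a smaller dark patch at its left edge.

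Of the activators, Arntl, the obligate partner in the activating pair, was lower in HDAC4&5 cells on every array. Its level had a lowest value of 0.40, a median of 0.52 and a highest value of 0.62 in WT, and -0.51, -0.33 and -0.28 in HDAC4&5. The groups did not overlap. The difference was -0.88 (SE 0.05, 95% interval -0.99 to -0.76), and the 3 slides gave -0.88, -0.91 and -0.84. Clock, which encodes the partner of ARNTL, had 1.52, 1.65 and 1.88 in WT and 2.04, 2.38 and 2.66 in HDAC4&5. All HDAC4&5 arrays were above all WT arrays, by 0.67 (SE 0.11, 95% interval 0.43 to 0.90) on average. Npas2, which can stand in for CLOCK, was well above background on none of the 19 arrays and entered no comparison. Its measured levels ran from -7.65 to -6.47 in WT and from -7.62 to -6.27 in HDAC4&5.

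The Per and the Cry genes each held members that were higher and members that were lower in HDAC4&5 cells, although with normexp background correction the lower ones, Per3 at 0.045 and Cry2 at -0.04, were near 0. Per2, a PER protein that carries CRY into the nucleus, had a lowest, median and highest level of -3.58, -3.50 and -3.35 in WT and of -2.05, -1.96 and -1.81 in HDAC4&5. The HDAC4&5 arrays were all higher, by 1.52 (SE 0.06, 95% interval 1.39 to 1.64), a 2.86-fold difference, with 1.61, 1.50 and 1.43 on the 3 slides. Per3, a PER relative with a weaker role in the loop, went the other way. Its levels were -4.00, -3.91 and -3.75 in WT and -5.24, -4.95 and -4.73 in HDAC4&5. The groups did not overlap, and the difference was -1.07 (SE 0.09, 95% interval -1.26 to -0.89), with the probe well above background on 3 of the 6 HDAC4&5 arrays. Per1, the PER gene that responds fastest to light and hormone signals, was at 0.06, 0.19 and 0.30 in WT and at 0.11, 0.22 and 0.52 in HDAC4&5. Its groups overlapped, and the 95% interval of the difference of 0.10 ran from -0.07 to 0.26.

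Cry1, the stronger repressor of the CRY proteins, was at -3.84, -3.78 and -3.36 in WT and at -3.02, -2.59 and -2.30 in HDAC4&5. The HDAC4&5 arrays were all higher, by 1.11 (SE 0.12, 95% interval 0.84 to 1.38) or 2.16-fold. Cry2, its close relative, was at -1.95, -1.80 and -1.73 in WT and at -2.49, -2.22 and -2.09 in HDAC4&5. Here the HDAC4&5 arrays were all lower, by -0.42 (SE 0.07, 95% interval -0.58 to -0.26). Both Nr1d genes, the repressors of Arntl, were higher in the HDAC4&5 cells. Nr1d1 was at -0.82, -0.75 and -0.64 in WT and at -0.25, -0.12 and 0.00 in HDAC4&5, a difference of 0.63 (SE 0.06, 95% interval 0.51 to 0.75). Nr1d2 was at 0.20, 0.33 and 0.54 in WT and at 0.93, 1.20 and 1.40 in HDAC4&5, a difference of 0.81 (SE 0.09, 95% interval 0.60 to 1.01). Neither gene's groups overlapped.

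Of the 9 members measured in the cells, 8 passed an adjusted p of 0.05 in limma's fit over all genes, 5 higher (36.5% of all genes tested) and 3 lower (32.8%), and the same 8 had groups that did not overlap, where 28.3% of all genes did as higher and 26.3% as lower. Over all 14166 genes tested, 69.3% passed and 54.6% had groups that did not overlap, and nothing is read from the members' count because they were chosen with it known. Per3 passed the filter on dim probes through WT alone. The members' median difference was 0.63, against 0.05 over all genes tested.

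**Figure D2:**
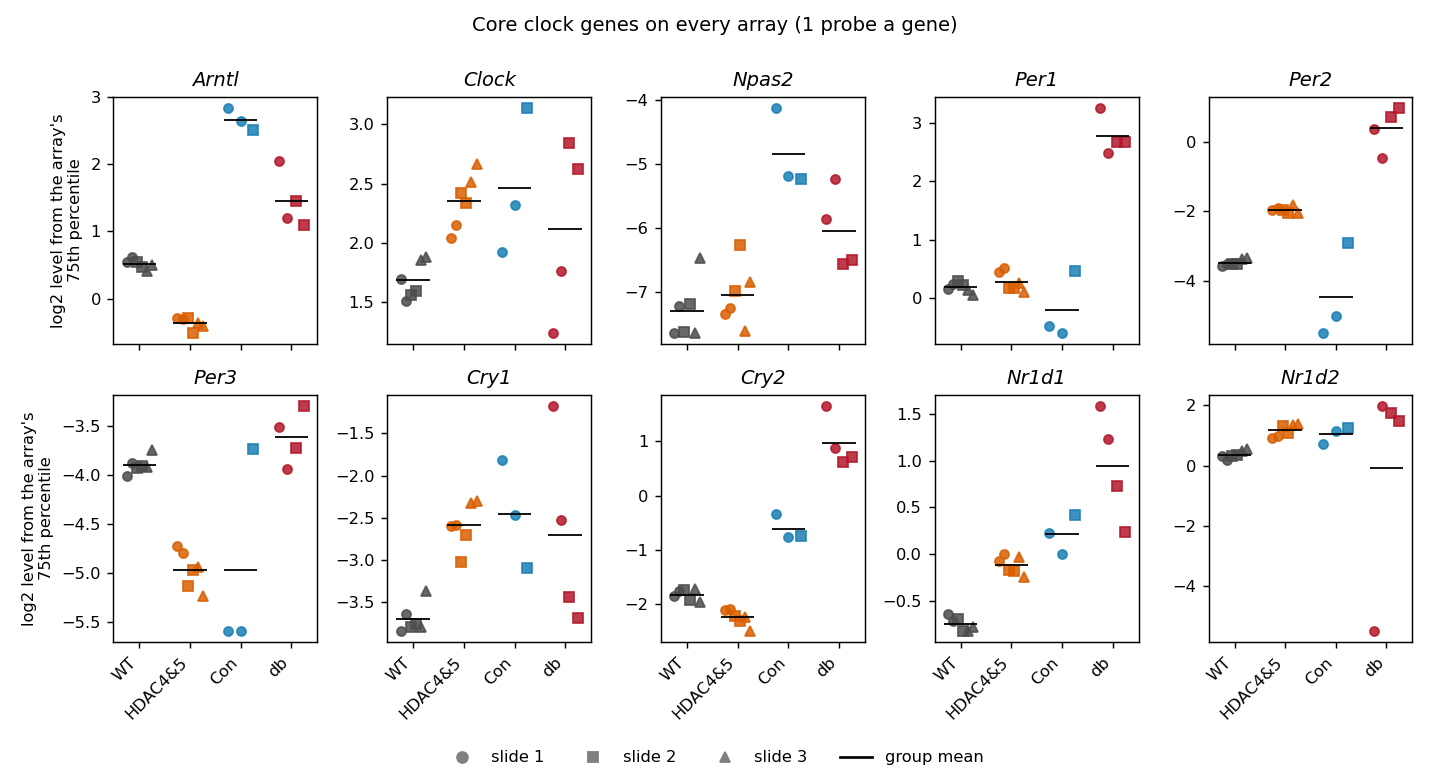
Level of each of the 10 genes (log2 of signal relative to the array's 75th percentile) on every array, by group, with a bar for each group mean. Per2 in db lies between -0.46 and 0.98, above every other array, and the lone low Nr1d2 point is db 1 at -5.49.

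Some genes had more than 1 probe, and their probes did not always agree. The second Per2 probe differed by 0.25 (SE 0.20) in the cells, against 1.52 for the main probe. Of the other Clock probes, A_52_P334677 differed by 0.61 and A_52_P279391 by 0.03, against 0.67 for the main probe. Nr1d1 probe A_52_P130952 differed by 0.49, close to the 0.63 of the main probe. In soleus A_52_P279391 differed by -1.76, with db arrays all below Con arrays, but its spots on db 1 and db 2 lay in dark areas, and without them the difference was -0.55 (95% interval -1.45 to 0.34), against -0.34 for the main probe. The second Per2 probe differed by 0.75 (SE 0.71) between Con soleus and WT cells, against -0.99 for the main probe. These probes lie in mm9 at chr1:93336538-93336597 for Per2, at chr5:76641773-76641832 and chr5:76664578-76664637 for Clock, and at chr11:98633332-98633391 for Nr1d1. The main probes lie at chr1:93313046-93313105 for Per2, at chr5:76641377-76641436 for Clock and at chr7:120456978-120457037 for Arntl. Which transcripts each probe reads was not tested, since the reference tables hold no annotation of mm9.

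In soleus, Per1, Per2 and Cry2 were higher and Arntl was lower in db mice than in Con mice. Arntl was at 2.84, 2.65 and 2.51 on Con 1 to 3 and at 2.05, 1.20, 1.45 and 1.09 on db 1 to 4. Every db array was below every Con array, and db 1, whose spot lies at the edge of the dark band, was the highest of the 4. The difference was -1.22 (SE 0.32, 95% interval -1.96 to -0.48), with -1.12 within slide 1 and -1.24 within slide 2. Clock was at 1.93, 2.32 and 3.14 in Con and at 1.24, 1.76, 2.84 and 2.62 in db. Its groups overlapped, since both groups were higher on slide 2, and the interval of its difference of -0.34 ran from -1.46 to 0.78. Within the slides Clock differed by -0.62 and -0.40. Npas2 was at -5.25 to -4.13 in Con and at -6.57 to -5.25 in db, and none of these spots was well above background.

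Per1 was at -0.49, -0.60 and 0.46 in Con and at 3.26, 2.48, 2.67 and 2.67 in db. All 4 db arrays were above all 3 Con arrays, by 2.98 (SE 0.36, 95% interval 2.14 to 3.82), a 7.90-fold difference, with 3.41 within slide 1 and 2.21 within slide 2. Per2 was at -5.50, -4.99 and -2.90 in Con, where it was well above background on 1 of 3 arrays, and at 0.38, -0.46, 0.72 and 0.98 in db. The db arrays were again all higher, by 4.87 (SE 0.65, 95% interval 3.38 to 6.36) or 29.2-fold. The size depended on the background correction and the table used, with 2.28 after normexp and 3.90 from the deposited value table. Within slide 1 the difference was 5.21 and within slide 2 it was 3.75, and the gene entered the comparison through its db arrays alone, so the fold rests on Con spots of which most were near background. The second Per2 probe did not show a difference of this size, with means of -3.81 in Con and -3.78 in db, but its levels moved with the slide. On slide 1 it was at -2.71 and -2.50 in Con and at -3.29 and -2.38 in db. On slide 2 it was at -6.23 in Con and at -4.80 and -4.66 in db. That probe was well above background on 2 of 3 Con and 1 of 4 db arrays, so it entered no test. Its db 1 spot lay in the dark area. Per3 was at -5.59, -5.59 and -3.73 in Con and at -3.50, -3.94, -3.72 and -3.29 in db. It was well above background on 1 of 3 Con and 2 of 4 db arrays, so it entered no test. The Per3 spot on db 1 also lay in the dark area.

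Cry2 was at -0.35, -0.77 and -0.74 in Con and at 1.65, 0.87, 0.62 and 0.71 in db. Every db array was above every Con array, by 1.58 (SE 0.34, 95% interval 0.80 to 2.36), or 2.98-fold, with 1.81 and 1.40 within the slides. The surroundings of the Cry2 spot also separated by group, at -0.31 to -0.17 on the Con arrays and 0.11 to 0.63 on the db arrays. They were highest on db 1, and their part in the Cry2 difference was not tested. Cry1 was at -1.82, -2.46 and -3.09 in Con and at -1.17, -2.53, -3.44 and -3.69 in db. Its groups overlapped, and its difference of -0.25 (95% interval -1.71 to 1.21) was 0.29 within slide 1 and -0.47 within slide 2. Nr1d1 was at 0.23, 0.00 and 0.42 in Con and at 1.59, 1.24, 0.73 and 0.23 in db. The groups overlapped through db 4, and the difference of 0.73 (95% interval -0.13 to 1.60) was 1.30 within slide 1 and 0.07 within slide 2.

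Nr1d2 depended on a single spot. It was at 0.73, 1.15 and 1.26 in Con and at -5.49, 1.98, 1.73 and 1.47 in db, where db 1 is the array with the dark band. With that spot the difference was -1.12 (SE 1.71, 95% interval -5.06 to 2.82). Without it the 3 remaining db arrays lay above all Con arrays, and the difference was 0.69 (SE 0.32, 95% interval -0.07 to 1.44), with 1.04 within slide 1 and 0.35 within slide 2. The differences of the other 7 members tested were the same without spots in dark areas, since none of their main spots was marked.

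Of the 8 members measured in soleus, 4 had groups that did not overlap, Per1, Per2 and Cry2 higher and Arntl lower, where 10.4% of the 13112 genes tested did, 5.13% as higher and 5.26% as lower. None passed an adjusted p of 0.05 in limma's fit without the slide, with 4 at an unadjusted p under 0.05, against 0.00763% and 6.35% of all genes tested. With the slide as a block, 2 passed, Per1 and Per2, against 0.305% of all genes, but 0 passed when Con 1, Con 2, db 3 or db 4 was left out and 4 when db 1 was. With the slide as a block and without spots in dark areas, 4 passed, Per1 at 2.93, Per2 at 4.62 and Cry2 at 1.65 higher and Arntl at -1.17 lower, against 2.66% of all genes. The genes were chosen with this contrast known, so these counts support nothing. The members' median difference was 0.24, or 0.71 without the dark spots, against -0.02 over all genes.

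**Figure D3:**
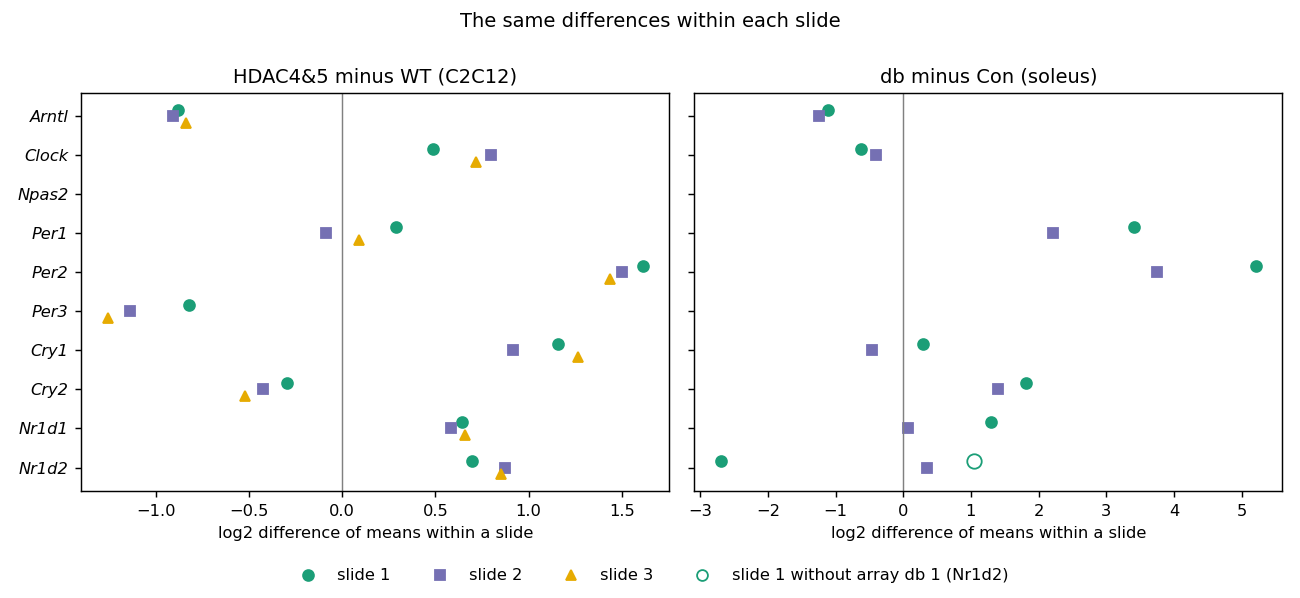
Difference of group means within each slide (log2) for each measured gene, HDAC4&5 minus WT on 3 slides (left) and db minus Con on 2 slides (right), with an open circle for Nr1d2 on slide 1 without db 1. In soleus, Per1, Per2 and Cry2 lie above 0 and Arntl below 0 on both slides, while Cry1 and, with the db 1 spot, Nr1d2 change sign between slides.

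Of the marker sums in soleus, those of endothelium and adipocytes did not overlap between the groups. Those of fast fibre, skeletal muscle, myoblast, erythrocyte, macrophage and nerve markers did. The summed linear level of the 5 fast fibre markers was 467 to 936 in Con and 116 to 536 in db, and that of the 4 endothelial markers was 12.3 to 21.3 in Con and 5.45 to 11.7 in db. The 6 adipocyte markers summed to 107 to 176 in Con and 55.0 to 93.6 in db, although their median difference was 0.63, toward higher in db. The part of these shifts in the clock gene differences was not tested. Of 6 genes tested that glucocorticoids induce, hormones to which Per1 also responds, Fkbp5 at 1.47 (limma adjusted p = 0.657) and Tsc22d3 at 1.73 (adjusted p = 0.775) had db arrays all above Con arrays, as 5.13% of all genes did. Tsc22d3 had no Con array on slide 2 after outlier spots were left out, and within slide 1 it differed by 0.80. Of 6 immediate early genes tested, Jun at -1.26 (adjusted p = 0.633) had db arrays all below Con arrays, as 5.26% of all genes did.

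**Figure D4:**
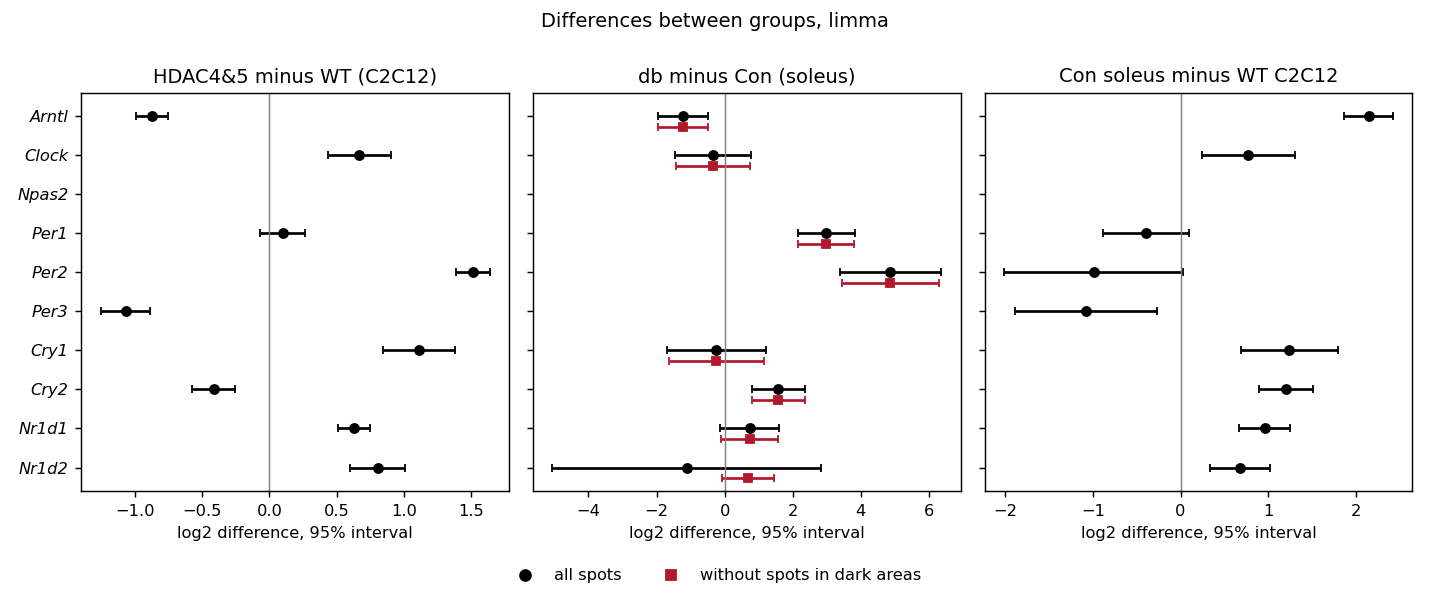
Difference between groups (log2, with its 95% interval) for each measured gene, HDAC4&5 minus WT, db minus Con, and Con soleus minus WT cells, with squares for soleus without spots in dark areas. Arntl lies below 0 and Per2 above 0 in the first and the second panel, while Cry2 and Clock differ in sign between them.

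The 2 experiments had no samples in common, and their differences were on opposite sides of 0 for Cry2 (-0.42 in the cells and 1.58 in soleus), Clock (0.67 and -0.34) and Cry1 (1.11 and -0.25). The soleus intervals of Clock and Cry1 include 0, and with the slide as a block that of Clock ran from -1.06 to -0.01. Whether an effect differed between cells and soleus was not tested, since the perturbations differ.

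Control soleus was set against control cells to give the genes' levels in the 2 systems, a contrast that the choice of genes did not use. Arntl was higher in Con soleus than in WT cells by 2.15 (SE 0.12, limma adjusted p = 9.61e-08). Cry2 was higher by 1.20 (SE 0.14, adjusted p = 2.06e-05), Cry1 by 1.24 (SE 0.25, adjusted p = 0.00107) and Nr1d1 by 0.96 (SE 0.13, adjusted p = 6.99e-05). Nr1d2 was higher by 0.67 (SE 0.15, adjusted p = 0.00242) and Clock by 0.78 (SE 0.24, adjusted p = 0.0132), although the second Clock probe differed by -0.27 (adjusted p = 0.178). Per3 entered through WT alone, since its spot was well above background on 1 of 3 Con arrays, and its measured difference of -1.08 (SE 0.36, adjusted p = 0.0206) did not pass without Con 1 or without Con 2 (-0.77 each). Per1 at -0.39 (SE 0.22, adjusted p = 0.128) and Per2 at -0.99 (SE 0.46, adjusted p = 0.0725) did not pass, but both did without Con 3 (-0.73 and -1.77), as did Per1 with the deposited value table (-0.75) and Per2 with quantile normalisation (-2.20). So 7 of 9 members passed, 6 higher and 1 lower, where 75.2% of 15086 genes did, 37.3% as higher and 37.9% as lower, so the members' share was close to that of all genes. With only probes well above background in both groups, 6 of 7 members passed, where 8378 of 11170 genes did. The slides and the extraction differ with the tissue and cannot be told apart from it.

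Across the 4 groups, 2 genes had levels in which no neighbouring groups overlapped. Arntl ran from Con soleus (mean 2.67) through db soleus (1.45) and WT cells (0.52) to HDAC4&5 cells (-0.36). Cry2 ran from db (0.96) through Con (-0.62) and WT (-1.82) to HDAC4&5 (-2.24). Per1 was highest in db, with HDAC4&5, WT and Con overlapping their neighbours below it. Per2 ran from db (0.41) to HDAC4&5 (-1.95) and WT (-3.47) without overlap, and WT overlapped Con (-4.46). For Cry1 and Clock every group overlapped its neighbour, with Con highest and WT lowest. Nr1d1 was lowest in WT (-0.74), below the overlapping HDAC4&5, Con and db groups. Nr1d2 was higher in HDAC4&5 and Con, which overlapped, than in WT, and its db mean of -0.08 rests on the db 1 spot. Without that spot the db mean of Nr1d2 was 1.73, the highest of the 4 groups, and the remaining db arrays lay above all arrays of the other groups.

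Of the genes around the loop, 42 further ones were taken from lists of the ROR activators, regulators of clock proteins, output factors, genes that cycle in many tissues and clock targets in muscle. In the cells 18 of 40 tested passed the adjusted p as higher and 15 as lower, where 36.5% of all genes passed as higher and 32.8% as lower, which is the background of each list count in the cells. The output factors, transcription factors controlled by the loop, held 4 that rose and 2 that fell out of 6, against 36.5% and 32.8% of all genes. Dbp, a D-box activator, was at 2.46 to 2.74 in WT and 4.16 to 4.48 in HDAC4&5 cells, a rise of 1.71 (SE 0.07, adjusted p = 1.02e-10). Hlf, another D-box activator, rose by 2.83 (adjusted p = 1.43e-12), Tef by 1.06 (adjusted p = 2.68e-10) and Bhlhe40 by 0.50 (adjusted p = 2.17e-05). Nfil3, the repressor at the D-box, fell by 0.65 (adjusted p = 2.64e-05) and Bhlhe41 fell by 0.70 (adjusted p = 1.44e-06). Of the ROR activators, which drive Arntl, Rorb rose by 0.48 (adjusted p = 0.0084), and Rora, well above background on 2 of 6 HDAC4&5 arrays, had a measured difference of -0.83 (adjusted p = 0.00169). The groups overlapped for both.

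Of 20 regulators of clock proteins tested in the cells, 9 passed as higher and 4 as lower, close to the 69.3% of all genes that passed. Prkaa2, a kinase subunit that sends CRY to degradation, was at least 5.77-fold higher in HDAC4&5 cells, since no WT array was well above background (adjusted p = 2.5e-10). Ciart, a repressor of the ARNTL and CLOCK pair, differed by 2.77 (adjusted p = 0.000966) and was well above background on 1 of 6 WT arrays. Among those that fell were Prkaa1, another catalytic subunit of the same kinase, by 0.66 (adjusted p = 1.72e-06), Csnk2b by 0.22 (adjusted p = 0.0244) and Wdr5 by 0.22 (adjusted p = 0.0105). Among the cycling genes Lonrf3 rose by 4.55 (adjusted p = 2.93e-14), Nampt by 1.28 and Tspan4 by 1.00. Usp2, well above background on 3 of 6 HDAC4&5 arrays, had a measured difference of -4.20 (adjusted p = 2e-10). Tsc22d3 fell by 2.21 (adjusted p = 1.11e-11) and Wee1 fell by 0.59 (adjusted p = 0.0446). Of the 6 muscle clock targets 1 passed as higher and 5 as lower, where 36.5% and 32.8% of all genes did, among them Myod1, the master factor of myogenesis, at least 263-fold lower (adjusted p = 1.92e-14). The other 4 that fell were Pdk4 by 2.88, Tcap by 1.39, Pdp1 by 0.82 and Tbc1d1 by 0.35, and Hk2, the muscle hexokinase, rose by 0.55. Of the glucocorticoid-induced genes Sgk1 rose by 0.27 and Tsc22d3, Cebpd (by 1.59) and Fkbp5 (by 0.32) fell. Of 7 immediate early genes Junb rose by 0.38 and 5 fell, Egr1 by 2.79, Nr4a1 by 2.52, Jun by 1.11, Ier2 by 0.68 and Fos, which was well above background on none of the HDAC4&5 arrays.

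In soleus none of 37 of these genes passed limma's adjusted p, with 8 at an unadjusted p under 0.05, against 0.00763% and 6.35% of all genes tested. Dbp was at 3.33 to 4.04 in Con and at 5.63 to 6.55 in db, 2.49 (SE 0.34) higher, with 2.23 and 2.92 within the slides. With the slide as a block Dbp was the one output factor that passed, at 2.51 (adjusted p = 0.0286), where 0.305% of all genes did. With the block and without spots in dark areas, where 2.66% of all genes passed, Dbp (adjusted p = 0.00276), Hlf at 1.61 (adjusted p = 0.034), Bhlhe40 at 1.55 (adjusted p = 0.0339) and the cycling gene Tspan4 at 1.24 (adjusted p = 0.0472) passed as higher, and Timeless at -1.13 (adjusted p = 0.0298) as lower. Without the block, Hlf, at 1.70 (adjusted p = 0.515), and Bhlhe40, at 1.67 (adjusted p = 0.537), had db arrays all above Con arrays, as 5.13% of all genes did. Among the cycling genes Tspan4 at 1.59, with 3 arrays in each group, had db arrays all above Con arrays too, and Nampt, with 2 arrays in each group, was lower by -0.38. Of the 18 regulators tested, Gsk3b at 0.34 and Timeless at -1.13 had groups that did not overlap. Over all genes tested 10.4% did, 5.13% as higher and 5.26% as lower, so the regulators' count was close to that share. Tef, Rora, Prkaa1, Prkaa2, Lonrf3, Wdr5 and Pdk4 have spots in the dark area of db 1, and Tef at -3.27 became 0.68 without it, which left 1 db array. The median difference was 1.30 over the output factors, 1.35 over the cycling genes and 0.10 over the regulators, against -0.02 over all genes tested.

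**Figure D5:**
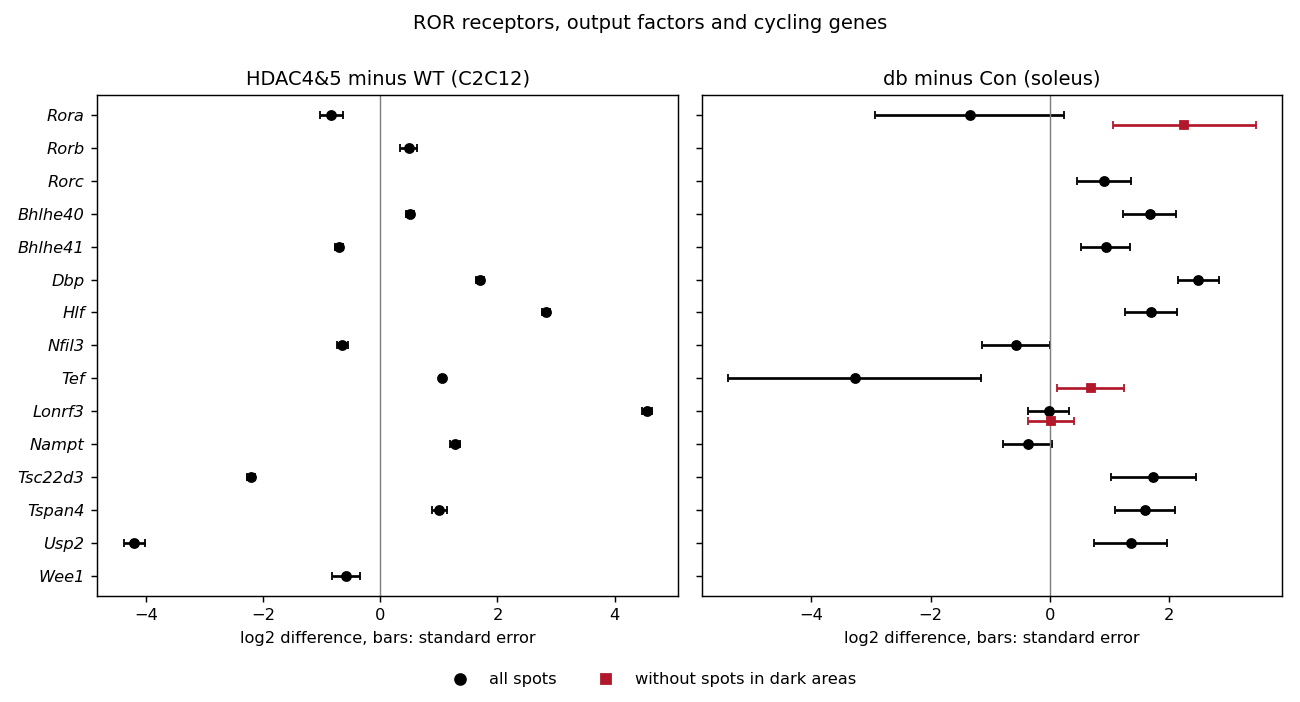
Difference of HDAC4&5 from WT and of db from Con (log2, with SE) for the ROR activators, output factors and cycling genes, with squares for soleus without spots in dark areas. Dbp and Hlf lie above 0 in both experiments, at 1.71 and 2.83 in the cells and at 2.49 and 1.70 in soleus.

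The genes whose soleus pattern was most like that of Arntl were found by Pearson correlation over the 7 soleus arrays after each slide's mean was subtracted, among 9424 genes well above background on all 7 arrays. Among the highest were Usp24, 9630013D21Rik, Zfp879 and AK054427, at 0.99, and the lowest were Slc22a2 at -0.99 and Zbtb11os1, Unc13d, Amph and Tnip2 at -0.98. Among the members, Clock was at 0.57 and Cry1 at 0.39, while Nr1d1 was at -0.55, Cry2 at -0.77 and Per1 at -0.82. The arrays share 2 slides and the groups, so the values describe these 7 arrays and carry no p.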

How the data were processed

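RNA of 19 samples was hybridised to 1-colour Agilent 4x44K arrays. The authors deposited scanner files with intensity values made by Agilent Feature Extraction 9.5.1.1, per the labels' processing notes, in which the processed signal is background-subtracted. The authors also deposited a value table, read here as a ratio of signal to the array's 75th percentile. Its columns matched the scanner files of the same samples in the cells and for Con 3, but the columns labelled db 1 and db 2 matched the scanner files of db 3 and db 4, and the other 4 soleus columns matched none closely, so it served only as an alternative, by group.

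From the intensities, log2(gProcessedSignal) minus each array's 75th percentile was computed. Control spots and spots with an outlier flag were left out, and spots of a probe were averaged. Of the probes, 27198 were named through RefSeq, with 2694 symbols updated. Separate linear models for each comparison were fitted in limma 3.58.1 (R 4.3.3), with Benjamini-Hochberg adjustment over all genes and a threshold of 0.05. The number of arrays limits the precision. The labels do not say that samples of a group came from separate cultures, so p-values measure only the spread between these samples, which may be technical. The paper states 3 biological replicates in each microarray group, while each cell group holds 6 arrays and the db group 4. The soleus labels number a mouse for each array. Whether cell arrays share a biological replicate is not stated, and each array was fitted as 1 sample. The genes and lists were chosen with earlier results of these data known. All members were named, and from each other list up to 4 genes that passed or did not overlap, by size, and any gene that a count of 5 or fewer holds. Some genes that this rule would name are not reported here. Replicate numbers carry the slide: same-numbered samples deviated together (r 0.367 to 0.704 over 6 pairs in cells, 0.446 to 0.731 over 3 pairs in soleus), and so did samples of the same slide with other numbers (0.356 to 0.717 and 0.359 to 0.803). A spot was counted as in a dark area where the bright spots (level above -3, at least 5 of them) within 3 rows and columns lay, in the median, below the other arrays by more than 1, a rule chosen after seeing the data. On simulated data with 200 genes changed by 2, limma recovered 98.5% in the cells (20038 genes), 34.5% in soleus (15405 genes) and 84.5% between the controls (21109 genes). Of the simulated calls, 2.96%, 9.21% and 4.52% were unchanged genes. The simulated sets held more genes than the 14166, 13112 and 15086 tested, so these shares are not those of the reported fits.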

Additional observations from a re-analysis of the deposited data

Results flagged for a closer look

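Among the 30 combinations of member and group with 4 to 10 arrays, 1 had an array far from the others by Dixon's criterion, where chance alone gives about 1 in 20, or 1.5 here. It was Nr1d2 in db soleus, where array db 1 was at -5.49 and the nearest of the other 3 arrays at 1.47. The spot lies in the dark area of that array, where the surrounding bright spots were at -1.78 relative to the other soleus arrays.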

How the results depend on the processing

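In the cells, 8 of 9 members passed the adjusted p, and every alternative that was run gave 6 to 8, with the replicate block giving 8. The sign changed for Per3 with normexp background correction (0.045), and for Per1 with the deposited value table (-0.082) and within slide 2 (-0.086). Cry2 lost its call with normexp (-0.04).

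In soleus, 0 of 8 members passed without a block. The replicate block gave 0, the methods' t-test and limma gave 4 at an unadjusted p, the slide block gave 2, and the slide block without spots in dark areas, chosen after seeing the data, gave 4. Leaving out 1 array gave 0 to 1 without the block and 0 to 4 with it, with 4 without db 1, 2 without Con 3 or db 2, and 0 without Con 1, Con 2, db 3 or db 4. Nr1d2 changed sign with the deposited value table (0.80), within slide 2 (0.35), without dark spots (0.69, or 0.70 with the slide block) and without db 1 (0.69, or 0.70 with the block), and without 1 array and no block it lay between -1.80 and 0.69. Cry1 changed sign with the replicate block (0.078), within slide 1 (0.29), without Con 1 (0.072), without db 4 (0.078) and, with the slide block, without Con 3 (0.29) or db 2 (0.25), and without 1 array it lay between -0.76 and 0.29. Over all genes the slide block called 40, and 348 without dark spots, against 1.

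Between the controls, 7 of 9 passed and the alternatives gave 6 to 9. Per2 (0.85) and Per3 (0.77) changed sign with normexp. Per3 lost its call with the slide as a random block (-0.85), with the deposited value table (-0.24) and without Con 1 or Con 2 (-0.77 each), and Clock with normexp (0.56). The share of calls that were higher was 49.6%, but 74.5% with no filter (median of all genes 1.54), 43.4% with quantile normalisation (median -0.28), 42.0% with the deposited value table and 56.7% with normexp (median 0.24); in the cells it was 52.7%, and 38.9% with the deposited value table. The cause of these changes was not tested. Signal over background limits Per2 and Per3, which were near background in Con.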
